A study of Mus musculus with 16 samples.

Results

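The interferon-inducible GTPases of the mouse fall into 2 families, the guanylate-binding proteins (GBPs) and the immunity-related GTPases (IRGs), and 10 of them are described here in B16F10 melanoma. The members are Gbp2, Gbp3, Gbp4, Gbp5 and Gbp7 of the GBP family and Igtp, Irgm1, Irgm2, Iigp1 and Tgtp1 of the IRG family, taken by symbol from the 18929 genes of the expression table. Gbp4 had been picked for its large rise in the combination group and its near absence in the α-KG group, so its values are given as a description with no test. The other 9 were measured in the same tumors and follow Gbp4 closely, so their tests are not separate evidence for that pattern.

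RNA was sequenced from tumors of B16F10, a melanin-producing mouse melanoma cell line, grown from cells injected on the right side of the abdomen of C57BL/6 females aged 7-8 weeks. The mice received 1 of 4 intraperitoneal treatments for 9-11 days: corn oil vehicle (with an IgG isotype antibody, per the study's methods), 100 mg/kg of α-ketoglutarate (α-KG, a metabolite of the citric acid cycle), an antibody that blocks the T-cell checkpoint receptor PD1 (anti-PD1), or α-KG + anti-PD1. No group carried a transgene or a deletion, so all 4 shared the same injected cell line and the same host strain. Each group was represented by 4 independent tumors, numbered 1 to 4 within the group, and p-values measure the spread between such tumors. The design asks how each treatment, and the pair given together, changed transcript levels in the tumor.

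GBPs and IRGs are large GTPases that are scarce in resting cells and are switched on by interferons, above all interferon gamma, which acts through transcription factors that include IRF1. They assemble on membranes, best known on the vacuoles of intracellular parasites and bacteria, where they break open the compartment and expose its contents to inflammasomes. In tumors their transcripts are widely read as a sign that cells have sensed interferon.

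The sites at which interferon-activated factors bind are short, so the upstream sequences of the members were searched for 2 of them. The interferon-stimulated response element (ISRE) was taken as GAAANNGAAA, or TTTCNNTTTC read from the other strand, and the gamma-activated site (GAS) as TTCNNNGAA, which is its own complement. The RefSeq promoter table (GRCm38.p6, the same assembly as mm10) held 9 promoters of 8 members, and the 250 bases before each annotated start were read. An ISRE was present in 8 of the 9 (88.9%) and a GAS in 5 (55.6%), against 2.98% and 7.02% of all 32851 promoters in the table. All 5 promoters with a GAS also held an ISRE, a pairing found in 0.332% of all promoters. The members are paralogs, so their promoters are not independent draws. The upstream sequences of Igtp and Irgm2 share long stretches, and that of Tgtp1 shares the bases around the matches.

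The promoters of 5 members are printed to show the layouts, 5′ to 3′ on the gene's own strand, with ISRE and GAS matches in capitals. They lie at chr11:58199306-58199555 (plus strand) for Igtp, chr11:58214727-58214976 (plus strand) for Irgm2, chr11:48992247-48992496 (minus strand) for Tgtp1, chr3:142620413-142620662 (plus strand) for Gbp2 and chr11:48871421-48871670 (minus strand) for Irgm1.
Igtp: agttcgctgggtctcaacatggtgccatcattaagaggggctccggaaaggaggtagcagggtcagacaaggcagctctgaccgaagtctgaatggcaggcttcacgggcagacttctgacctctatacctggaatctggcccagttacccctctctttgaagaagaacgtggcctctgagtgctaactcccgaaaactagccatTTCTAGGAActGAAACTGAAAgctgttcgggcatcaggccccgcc
Irgm2: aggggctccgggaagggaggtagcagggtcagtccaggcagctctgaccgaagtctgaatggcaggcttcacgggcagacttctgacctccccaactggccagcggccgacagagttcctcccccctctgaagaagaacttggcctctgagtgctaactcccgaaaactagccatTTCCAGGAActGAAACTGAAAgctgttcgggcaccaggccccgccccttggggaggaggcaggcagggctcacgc
Tgtp1: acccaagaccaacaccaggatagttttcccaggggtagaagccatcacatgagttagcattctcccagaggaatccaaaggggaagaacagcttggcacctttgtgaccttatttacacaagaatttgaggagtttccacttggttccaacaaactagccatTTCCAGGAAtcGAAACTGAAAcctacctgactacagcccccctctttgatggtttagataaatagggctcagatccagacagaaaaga
Gbp2: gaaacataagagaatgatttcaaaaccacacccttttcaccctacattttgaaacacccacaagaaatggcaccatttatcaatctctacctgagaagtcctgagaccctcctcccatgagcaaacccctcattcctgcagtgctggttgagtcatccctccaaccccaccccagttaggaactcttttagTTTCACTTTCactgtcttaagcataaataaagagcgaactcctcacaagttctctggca
Irgm1: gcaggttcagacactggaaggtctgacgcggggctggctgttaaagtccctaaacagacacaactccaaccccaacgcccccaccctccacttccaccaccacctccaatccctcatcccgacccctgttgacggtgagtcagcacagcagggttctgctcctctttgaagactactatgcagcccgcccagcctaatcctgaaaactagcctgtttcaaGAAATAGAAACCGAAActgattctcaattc
In Igtp, Irgm2 and Tgtp1 the GAS stood directly upstream of the ISRE, the matches beginning 45 and 34, 75 and 64, and 88 and 77 bases before the start. Gbp2 had a single ISRE beginning 59 bases upstream and no GAS. In Irgm1 a pair of ISRE matches shared bases, beginning 30 and 24 bases upstream, again with no GAS. Among the members not printed, Gbp3 had overlapping ISRE matches 45 and 39 bases upstream of 1 of its 2 annotated starts, Gbp5 an ISRE at 165 bases with GAS matches at 245 and 52, and Gbp7 an ISRE at 53 bases with GAS matches at 106 and 87. No GAS match overlapped an ISRE match in these promoters. A match of letters is a description of the sequence and does not show that a factor bound it in these tumors.

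**Figure D1:**
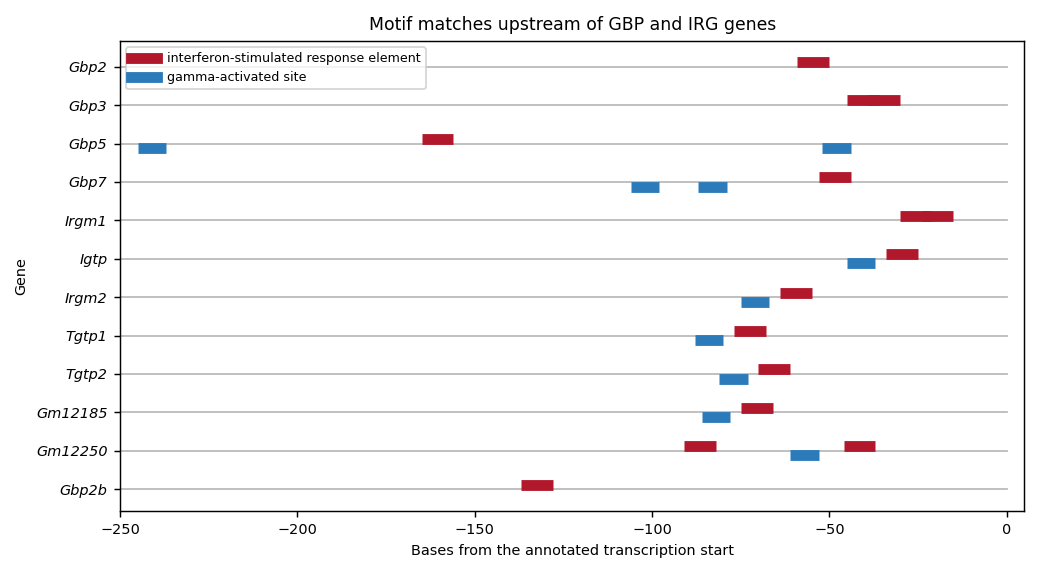
Positions of ISRE matches (red) and GAS matches (blue) in the 250 bases before the annotated start of 8 members and 4 related genes, in bases from the start. Gbp2 and Irgm1 hold ISRE matches only, and in Igtp, Irgm2 and Tgtp1 a GAS begins 45, 75 and 88 bases upstream, just before the ISRE.

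By RefSeq, Gbp5, Gbp7, Gbp3 and Gbp2 lie in this order in a cluster on chromosome 3, with the non-member Gbp2b between Gbp3 and Gbp2 (Gbp5 at chr3:142496934-142522344, Gbp7 at chr3:142530336-142550151, Gbp3 at chr3:142560016-142573213 and Gbp2 at chr3:142620663-142638008). Gbp4 lies in the GBP cluster of chromosome 5 at chr5:105115767-105139586. Irgm1 (chr11:48865245-48871420) and Tgtp1 (chr11:48985329-48992246) form one group on chromosome 11, and Igtp (chr11:58199556-58207592) and Irgm2 (chr11:58214977-58222783) another. Paralogs in these clusters resemble each other, which limits how reads can be assigned. In the GENCODE M21 transcripts, 91.4% of the 50-base windows of Tgtp1 also occurred in another gene, mostly Tgtp2, so the Tgtp1 value cannot be separated from that of Tgtp2. The share was 12.8% for Gbp4 and Gbp7, 12.3% for Igtp and 7.30% for Irgm2, and under 5% for the other 5 members.

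Levels are FPKM, fragment counts scaled to the length of the transcript and to the total of the library, which can therefore be compared between genes. The FPKM sum of a tumor ran from 514180 to 654772, lowest in the α-KG + anti-PD1 group (514180 to 527812), and the number of fragments behind a value is unknown. The 7 melanocyte markers summed to 7845 to 10572 FPKM in every tumor, as the tissue label says. The 6 red cell markers summed to 10891 to 11752 FPKM in the 4 tumors of the combination and to 23318 to 145323 FPKM in the other 12, and the 7 pan-leukocyte markers to 43.7 to 179.9 FPKM with vehicle, 184.9 to 367.1 with anti-PD1, 517.8 to 561.9 with α-KG and 280.0 to 1030 with α-KG + anti-PD1. In bulk tumors more cells of a type and more RNA per cell cannot be told apart. All 10 members reached the filter of 0.5 FPKM in at least 4 tumors, and all 10 did so without the combination tumors.

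Levels of the GBP members are taken first. Gbp2, which carries a lipid anchor and coats pathogen vacuoles, measured 11.6, 9.64, 0.69 and 0.98 FPKM in vehicle tumors 1 to 4, 6.09, 44.4, 53.8 and 10.9 in anti-PD1 tumors 1 to 4, 6.44, 12.7, 5.92 and 4.39 in α-KG tumors 1 to 4, and 131.0, 48.4, 107.9 and 29.2 in α-KG + anti-PD1 tumors 1 to 4. Every combination tumor exceeded every vehicle and α-KG tumor, while anti-PD1 tumors 2 and 3 lay above combination tumor 4. The group means ± SD (n = 4) were 5.73 ± 5.70, 28.8 ± 23.8, 7.37 ± 3.67 and 79.1 ± 48.2 FPKM in the same group order.

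Gbp3 read 3.24, 2.01, 0.41 and 0.62 FPKM in the vehicle tumors, 1.11, 9.01, 9.75 and 2.53 with anti-PD1, 1.83, 3.11, 1.03 and 1.09 with α-KG, and 29.5, 12.7, 23.1 and 8.80 in the combination. Gbp5, which promotes assembly of the NLRP3 inflammasome in macrophages, read 1.37, 0.68, 0.25 and 0.13 FPKM with vehicle, 0.64, 3.84, 5.03 and 1.08 with anti-PD1, 1.97, 1.99, 1.42 and 1.10 with α-KG, and 16.6, 5.20, 14.0 and 4.23 in the combination. Of the members, Gbp5 had the highest α-KG mean relative to vehicle (1.62 against 0.61 FPKM, a ratio of 2.67), though the vehicle and α-KG tumors overlapped. Gbp7 read 3.14, 2.18, 0.49 and 0.52 FPKM with vehicle, 1.25, 8.08, 8.18 and 1.97 with anti-PD1, 1.42, 1.88, 0.90 and 0.82 with α-KG, and 26.0, 12.6, 19.5 and 7.02 in the combination. For all 3 genes the combination tumors cleared the vehicle and α-KG tumors and overlapped the anti-PD1 tumors.

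Gbp4, the member chosen on its values, read 2.94, 1.29, 0.11 and 0.13 FPKM with vehicle, 0.98, 16, 16.8 and 1.56 with anti-PD1, 0.33, 1.63, 0.24 and 0.24 with α-KG, and 58.1, 29.7, 51.4 and 10.7 in the combination. It spanned the widest range of the 10 members, its highest tumor standing 528-fold above its lowest. With α-KG alone only tumor 2 passed 0.5 FPKM, and its lowest combination tumor lay below anti-PD1 tumors 2 and 3. Differences for Gbp4 on the log2(FPKM + 1) scale, given with no test, were 4.14 for the combination over vehicle, 4.41 over α-KG and 2.37 over anti-PD1.

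The IRG family divides into regulators, which sit on the cell's own membranes and hold the others inactive there, and effectors, which are loaded onto foreign vacuoles. The regulator Irgm1 was the most abundant member in all 16 tumors, at 32.2, 26.0, 7.44 and 8.21 FPKM with vehicle, 18.7, 82.7, 90.5 and 25.4 with anti-PD1, 18.6, 29.6, 16.3 and 11.8 with α-KG, and 179.9, 91.2, 161.9 and 64.7 in the combination. It also had the narrowest range, 24.2-fold from the lowest tumor to the highest, and made up 58.2% and 59.4% of the summed FPKM of the 10 members in vehicle tumors 3 and 4 but 21.6% in combination tumor 1. The regulator Igtp read 16.04, 10.7, 1.31 and 1.05 FPKM with vehicle, 6.11, 65.4, 64.8 and 9.96 with anti-PD1, 5.13, 11.7, 4.07 and 3.09 with α-KG, and 145.6, 71.0, 138.5 and 35.9 in the combination. The third regulator, Irgm2, read 6.83, 6.55, 1.47 and 1.18 FPKM with vehicle, 4.02, 23.8, 25.0 and 5.91 with anti-PD1, 5.04, 8.29, 4.33 and 2.93 with α-KG, and 57.8, 21.8, 45.3 and 17.8 in the combination. For all 3 regulators, combination tumors 1 and 3 were at the top and anti-PD1 tumors 2 and 3 were among the combination values.

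The effector Iigp1 read 6.92, 4.76, 0.23 and 0.49 FPKM with vehicle, 2.60, 28.0, 31.8 and 3.50 with anti-PD1, 1.42, 3.11, 0.77 and 0.45 with α-KG, and 88.9, 40.5, 76.8 and 20.4 in the combination. Tgtp1, the other effector, read 8.37, 6.56, 0.38 and 0.51 FPKM with vehicle, 5.09, 41.0, 48.9 and 3.61 with anti-PD1, 2.15, 4.47, 0.82 and 0.58 with α-KG, and 101.2, 39.8, 83.6 and 23.1 in the combination. Both effectors had a lower mean with α-KG (1.44 and 2.01 FPKM) than with vehicle (3.10 and 3.96 FPKM), and the tumors of these groups overlapped.

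**Figure D2:**
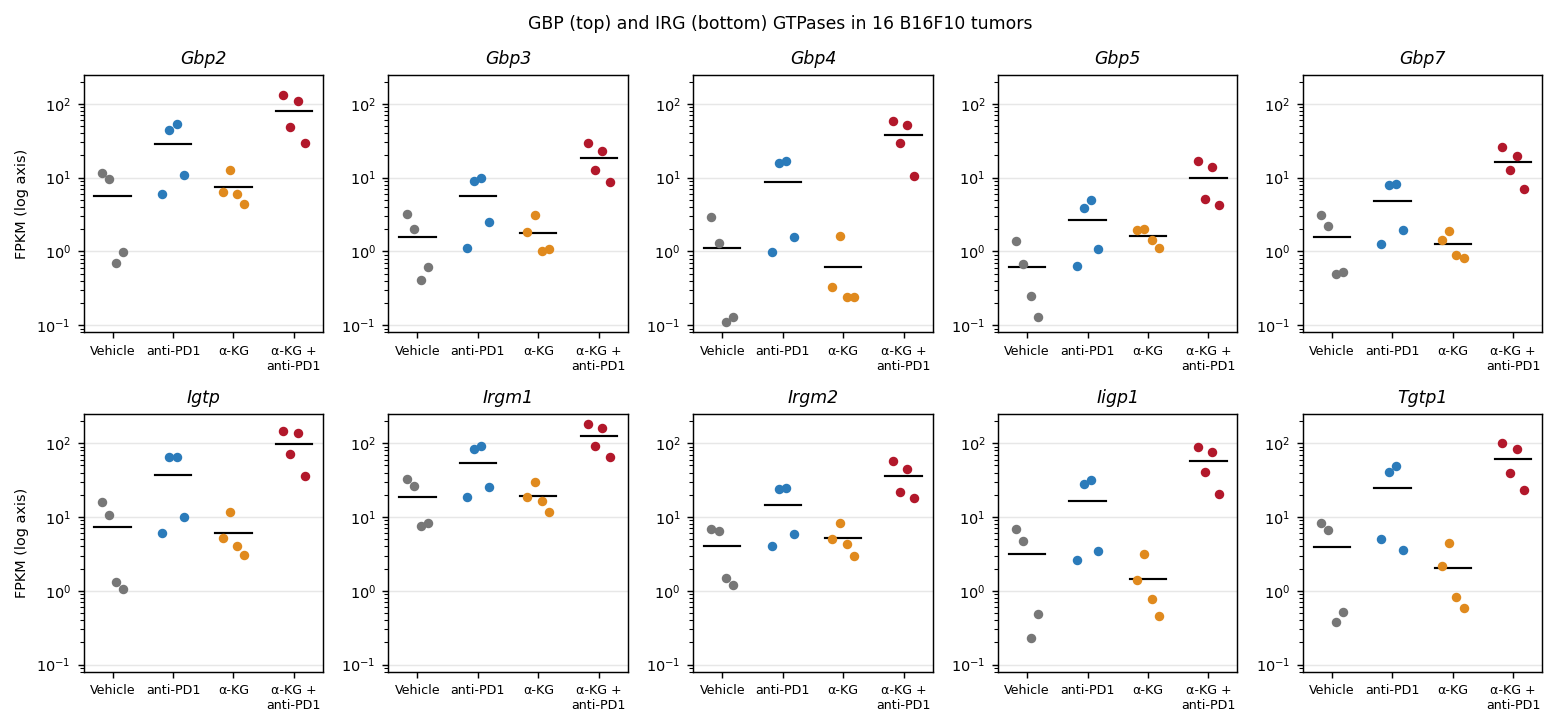
FPKM (log axis) of each member in each tumor, 1 panel per gene with GBPs above and IRGs below, points for the 4 tumors of each group from tumor 1 at left to tumor 4 at right, and a bar at the group mean. In every panel the combination tumors lie above all vehicle and α-KG tumors, and anti-PD1 tumor 3 exceeds combination tumor 4.

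The mean level followed the order combination, anti-PD1, vehicle, α-KG in 5 members (Gbp4, Gbp7, Igtp, Iigp1 and Tgtp1) and combination, anti-PD1, α-KG, vehicle in the other 5. Neighbours in both orders overlapped in every member. The order of tumors inside a group was shared too. Vehicle tumors 1 and 2, anti-PD1 tumors 2 and 3, α-KG tumors 1 and 2 and combination tumors 1 and 3 were the top pair of their group for all 10 members, and combination tumor 4 was the lowest of its group for all 10. Over the 16 tumors the 45 pairs of members had Pearson correlations of log2(FPKM + 1) from 0.895 to 0.997 with a median of 0.977, and after removal of the group means from 0.887 to 0.994. These points share their libraries, so the coefficients are a description.

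Red cell and pan-leukocyte markers moved along with this within-group order in some groups and not in others. T-cell and NK-cell markers did so in every group. The summed red cell markers were 63146 and 75221 FPKM in vehicle tumors 1 and 2 and 100525 and 107440 FPKM in vehicle tumors 3 and 4, where the members were low. They were 145323 and 108148 FPKM in anti-PD1 tumors 1 and 4, where the members were also low, and 74509 and 23318 FPKM in anti-PD1 tumors 2 and 3. In the α-KG group they were 28327 and 76351 FPKM in tumors 1 and 2, the high pair, and 99363 and 72843 FPKM in tumors 3 and 4, and in the combination they were nearly level. The pan-leukocyte sum was 179.9 and 121.0 FPKM in vehicle tumors 1 and 2 against 43.7 and 44.1 FPKM in tumors 3 and 4, and 1010 and 1030 FPKM in combination tumors 1 and 3 against 388.6 and 280.0 FPKM in tumors 2 and 4. In the anti-PD1 group it was 295.3 and 367.1 FPKM in tumors 2 and 3 against 184.9 and 264.4 FPKM in tumors 1 and 4. In the α-KG group it went the other way, at 525.4 and 517.8 FPKM in tumors 1 and 2 and 548.6 and 561.9 FPKM in tumors 3 and 4. The 9 T-cell markers summed higher in the members' top pair than in the other tumors of every group. That sum was 13.2 and 51.7 FPKM in α-KG tumors 1 and 2 against 11.0 and 8.52 FPKM in tumors 3 and 4. The sum of the 5 NK-cell markers had the same top pairs, whereas macrophage and neutrophil sums did not in every group. The part of these cells in the members' values was not tested. With each tumor rescaled to the same sum without the red cell markers, the counts of members called below were the same in all 7 comparisons.

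The first comparison asked what the combination did relative to vehicle. All 9 members other than Gbp4 rose, from 2.64 ± 0.44 (Gbp5, SE) to 4.04 ± 0.77 (Iigp1) on the log2(FPKM + 1) scale, with adjusted p from 0.00053 to 0.0018 (limma over all genes tested, Benjamini-Hochberg). In FPKM the ratio of group means ran from 6.74 for Irgm1 to 18.3 for Iigp1, the log2 scale understating the change of low genes. All 9 had groups that did not overlap. Of the 12850 genes tested, 34.9% were called higher and 28.2% had combination tumors that all exceeded the vehicle tumors, so a rise was common in this comparison. That share depends on the scaling (4479 genes higher and 1348 lower as deposited, 2197 and 4803 after centering on tumor medians, which moves the median gene from 0.15 to -0.16), whereas all 9 members were called higher under every scaling tried. As deposited, the median difference was 2.96 for the 9 members and 0.15 for all genes.

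Against α-KG alone, the comparison that isolates the added antibody, the 9 members were again all higher and none overlapped. The difference ran from 1.89 ± 0.44 for Gbp5 to 4.47 ± 0.77 for Iigp1, with a median of 2.82 against 0.16 for all genes, and the adjusted p ran from 0.00091 to 0.0052 (limma). The background here was 31.8% of genes called higher and 29.7% with groups that did not overlap. Among these 9 the effectors Iigp1 and Tgtp1 had the largest ratios of means, 39.4 and 30.9. The regulators Igtp, Irgm2 and Irgm1 had ratios of 16.3, 6.93 and 6.52, and Gbp5 the lowest, 6.18. The ratio of Gbp4, given as a description, was larger still at 61.4. Both comparisons use the same 4 combination tumors, so they are not independent of each other.

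Against anti-PD1 alone, the comparison that isolates the added α-KG, 3 GBPs passed the test. The log2 difference was 1.74 (95% interval 0.65 to 2.83, adjusted p = 0.036, limma) for Gbp3, 1.61 (0.68 to 2.53, adjusted p = 0.028, limma) for Gbp5 and 1.69 (0.66 to 2.72, adjusted p = 0.033, limma) for Gbp7, against a background of 14.2% of genes called higher. The other 6 had positive differences between 1.37 and 2.16 that did not pass, with adjusted p of 0.129 for Gbp2, 0.124 for Igtp, 0.093 for Irgm1, 0.097 for Irgm2, 0.064 for Iigp1 and 0.139 for Tgtp1 (limma). No member had groups that did not overlap, whereas 13.6% of all genes had combination tumors that all exceeded the anti-PD1 tumors. The 3 calls were not firm: none was left in a fit restricted to these 2 groups, or when anti-PD1 tumor 1, anti-PD1 tumor 4, combination tumor 1 or combination tumor 3 was left out, and 6 members were called when anti-PD1 tumor 2 was left out. The differences themselves were the same in the 2-group fit, where no gene of the 12850 was called (adjusted p 0.087 for Gbp3, 0.088 for Gbp5 and 0.086 for Gbp7, limma), and 202 and 289 genes in all were called higher without anti-PD1 tumors 1 and 4, against 1819 with all tumors. The count of members was 2 (Gbp3 and Gbp5) without combination tumor 2, and 4, with Iigp1 added, without anti-PD1 tumor 3 or combination tumor 4. The calls of other genes against anti-PD1 given below share this limit, since none held in the 2-group fit.

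Anti-PD1 alone was next compared with vehicle for the 9 members other than Gbp4. The rise for which Gbp4 was picked may have been measured from the vehicle tumors, so Gbp4 is again a description. All 9 had positive differences, from 1.04 ± 0.44 (Gbp5) to 2.22 ± 0.75 (Gbp2), and none passed after adjustment (limma, adjusted p from 0.155 for Gbp2 to 0.287 for Gbp7). For Gbp4 the difference was 1.77, given with no test. All 9 members other than Gbp4 had an unadjusted limma p under 0.05. Few genes were called anywhere in this comparison, 0.467% of those tested being called higher, and no member had groups without overlap, against 5.0% of genes that were higher without overlap. The spread inside the anti-PD1 group was wide, with Gbp2 at 6.09 and 10.9 FPKM in tumors 1 and 4 and 44.4 and 53.8 FPKM in tumors 2 and 3. Without vehicle tumor 1, Gbp2 passed with a difference of 2.70 (adjusted p = 0.048, limma).

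Between α-KG alone and vehicle, none of the 9 members other than Gbp4 was called by limma in either direction or had an unadjusted p under 0.05. The intervals were wide, so the absence of a call does not show that levels were equal. Ratios of group means ran from 0.46 (Iigp1) to 2.67 (Gbp5). The log2 differences of the 9 ran from -0.43 (Iigp1, 95% interval -2.06 to 1.20) to 0.77 (Gbp2, -0.82 to 2.36). The sign of 6 of the 9 turned when single tumors were left out. Over the alternatives run, the difference of Gbp5 reached 1.60, and its smallest adjusted p was 0.058 (limma). Of all genes tested, 8.4% were called higher and 7.53% lower by α-KG, and 10.1% and 10.4% were higher and lower without overlap, as no member was. Relative to anti-PD1 all 9 were lower with α-KG, by 0.29 (Gbp5) to 2.55 (Tgtp1) on the log2 scale, and again none was called by limma (smallest adjusted p 0.133 for Tgtp1), with 5 of 9 at an unadjusted p under 0.05 and a background of 0.358% of genes called lower. The α-KG and anti-PD1 tumors overlapped in every member, and 4.3% of genes were lower with α-KG without overlap.

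Whether anti-PD1 acted differently with α-KG than without it was tested as an interaction. The 9 estimates were all positive, from 0.86 (Gbp5) to 2.59 (Iigp1), and none passed after adjustment (limma, smallest adjusted p 0.1004 for Gbp7), with 3 of 9 at an unadjusted p under 0.05 and a background of 7.99% of genes called higher. For Gbp7 the estimate was 1.77 with a 95% interval of 0.31 to 3.22, and without anti-PD1 tumor 2 it passed (2.07, adjusted p = 0.047, limma). For Irgm1 the estimate was 1.14 with an interval of -0.51 to 2.79.

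**Figure D3:**
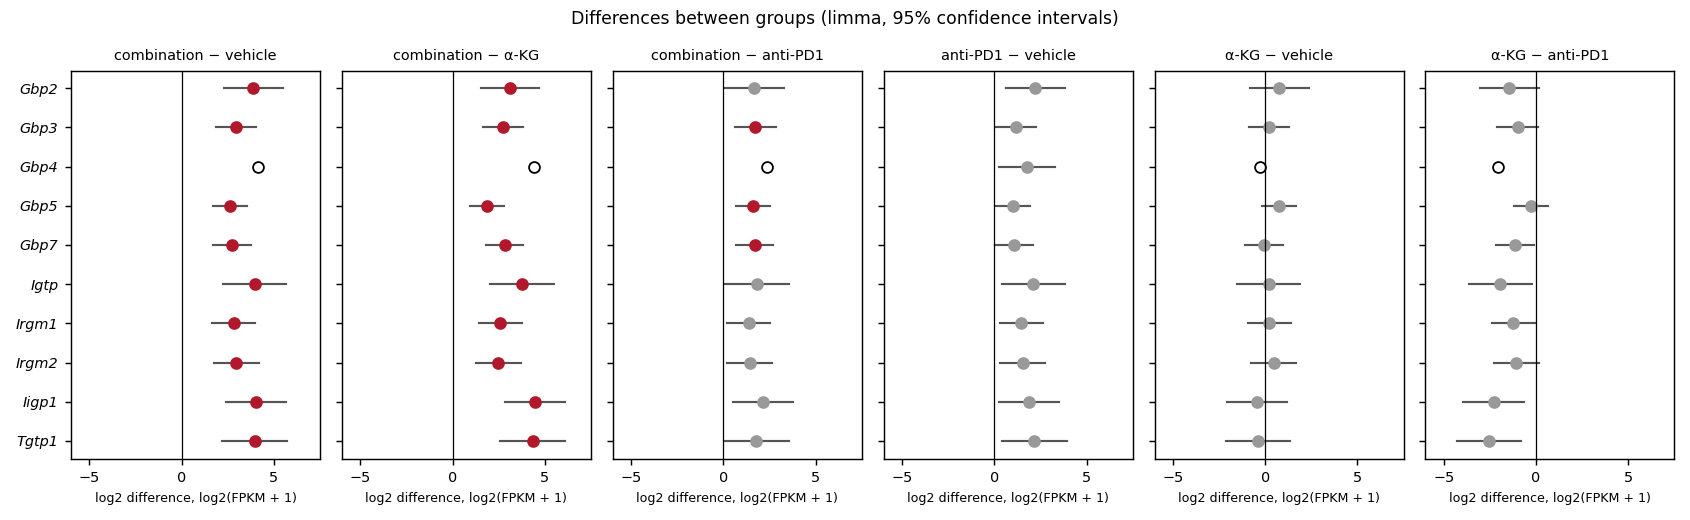
Differences of log2(FPKM + 1) between groups for each member in 6 comparisons, with 95% confidence intervals from limma. Points are red for adjusted p under 0.05 and grey otherwise. Open circles mark Gbp4, a description with no test. Between anti-PD1 and vehicle Gbp4 is drawn with its interval, also as a description. All 9 tested members are red against vehicle and against α-KG, 3 are red against anti-PD1, and the points of the α-KG and vehicle comparison lie between -0.43 and 0.77.

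A list of other genes of the same families was examined next. Of the 16 listed GBP and IRG genes in the table, which leave out Ifi47, 15 could be tested. Of these, 13 were higher in the combination than in vehicle and than in α-KG, against 34.9% and 31.8% of all genes. Gbp6, a neighbour of Gbp4 on chromosome 5, read 3.82, 2.65, 0.09 and 0.20 FPKM with vehicle, 1.50, 16.9, 19.9 and 2.04 with anti-PD1, 1.13, 2.82, 0.67 and 0.34 with α-KG, and 58.4, 28.1, 53.6 and 14.2 in the combination. Against anti-PD1, 8 of the 15 were higher, among them Gbp6 (log2 difference 2.24, adjusted p = 0.044, limma), Gbp8 (2.02, adjusted p = 0.016, limma) and Gbp9 (1.60, adjusted p = 0.026, limma). The background in that comparison was 14.2% of genes called higher. None of the 15 was called by limma between anti-PD1 and vehicle, where 7 had an unadjusted p under 0.05, or between α-KG and vehicle, where 1 did. A pair of genes stood apart from the rest of the family, neither being called in any comparison. Irgq, an IRG-like gene outside the clusters, read 4.01 to 6.83 FPKM over all 16 tumors and F830016B08Rik 1.39 to 7.20 FPKM. Both had an unadjusted limma p under 0.05 between the combination and vehicle. For Irgq the combination tumors (5.40 to 6.68 FPKM) all exceeded the vehicle tumors (4.01 to 5.38 FPKM), by a narrow margin. The upstream sequence of Irgq held neither an ISRE nor a GAS, and 4 of the 8 promoters read for these other genes held an ISRE.

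Interferon gamma and its signalling genes gave the setting. Ifng, the ligand, was read at 0.79, 0.26, 0 and 0.11 FPKM with vehicle, 0.26, 1.63, 2.42 and 0.72 with anti-PD1, 0.27, 0.77, 0.18 and 0.06 with α-KG, and 11.5, 4.37, 14.4 and 1.37 in the combination. It was higher in the combination than with vehicle (2.48, adjusted p = 0.00095, limma), α-KG (2.44, adjusted p = 0.0015, limma) and anti-PD1 (1.74, adjusted p = 0.026, limma). The combination and anti-PD1 tumors overlapped for Ifng (1.37 to 14.4 against 0.26 to 2.42 FPKM). As for the members, the call against anti-PD1 was not firm, since no gene was called in the fit of these 2 groups only. The receptor chain genes Ifngr1 and Ifngr2 were measured in every group, and Ifngr2 was higher with α-KG than with vehicle (0.46, adjusted p = 0.0033, limma). Of 10 kinases and transcription factors of the pathway examined, all 10 were higher in the combination than with vehicle, 8 than with α-KG and 5 than with anti-PD1. The shares of all genes called higher there were 34.9%, 31.8% and 14.2%. Irf1 read 3.18 to 19.5 FPKM with vehicle, 7.74 to 38.5 with anti-PD1, 9.31 to 16.4 with α-KG and 33.9 to 109.2 in the combination. With α-KG alone only 1 of the 10, Jak2, was called (0.74, adjusted p = 0.017, limma), against 8.4% of all genes called higher.

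Because Ifng also varied inside the groups, its relation to the members was examined after removal of the group means. The 9 members other than Gbp4 were higher where Ifng was higher within its group, with Pearson r from 0.748 (Tgtp1) to 0.898 (Gbp5) and Spearman rho from 0.779 to 0.959 over 16 tumors. In each of the 9 relations the permutation p (100000 permutations within groups, two-sided) was at most 0.00018 for r and 0.00061 for rho, 1e-05 being the smallest it can give. Without combination tumors 3 and 4, the 2 tumors farthest from the median Ifng deviation, r ran from 0.851 to 0.958. With Ifng as a covariate in limma, an alternative chosen after the data were seen, all 9 slopes were positive (0.84 to 1.35 log2 units of the member per log2 unit of Ifng) with adjusted p from 0.00014 to 0.0086 over all genes, where 9.31% of genes had a positive slope called. For Gbp4, given as a description, r was 0.839 and the slope 1.29. Outside the combination Ifng was at most 2.42 FPKM, where a difference rests on little signal, and T-cell and other leukocyte genes had called positive slopes as well, for instance Cd8a (1.17) and Ptprc (0.79).

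**Figure D4:**
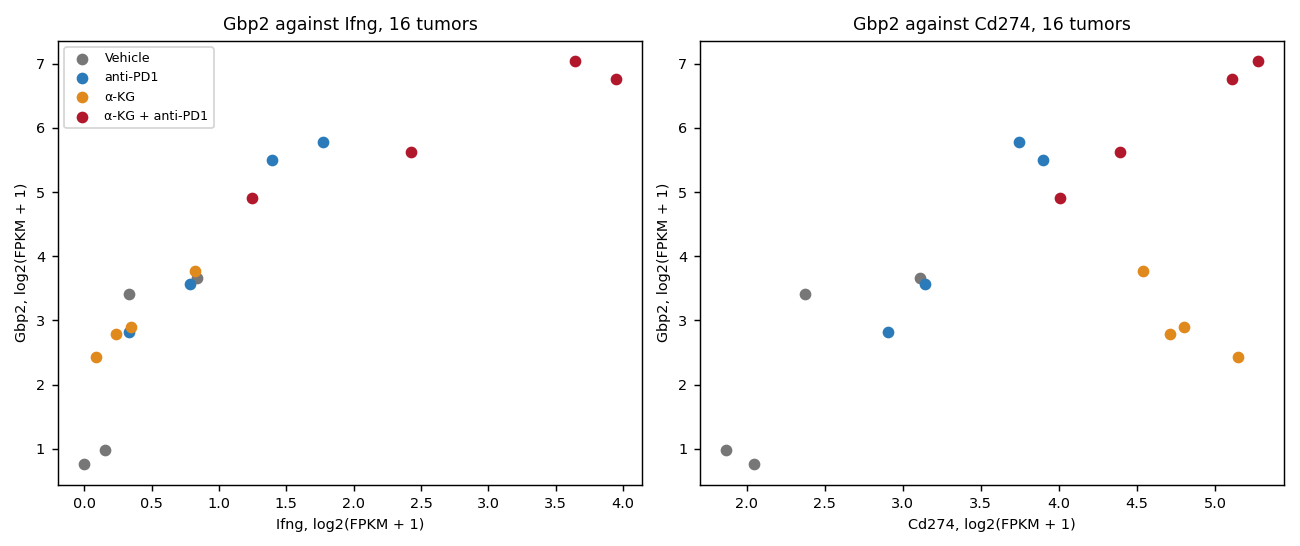
Gbp2 against Ifng (left) and against Cd274 (right) in 16 tumors, each as log2(FPKM + 1), colored by group. Gbp2 rises along with Ifng over all groups, while the 4 α-KG tumors reach the Cd274 level of the combination (22.2 to 34.4 FPKM) with Gbp2 at 4.39 to 12.7 FPKM.

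Cd274, which encodes PD-L1 and is itself an interferon gamma target, did not share the members' pattern between groups. It read 2.66 to 7.63 FPKM with vehicle, 6.49 to 13.9 with anti-PD1, 22.2 to 34.4 with α-KG and 15.1 to 37.7 in the combination. α-KG alone raised it (2.45, adjusted p = 4.8e-05, limma), and the combination and α-KG groups differed by -0.10 (95% interval -0.76 to 0.55). Its correlation with the mean member profile over 16 tumors was 0.516, rank 5438 of 12840 genes. Within groups Cd274 did have a called positive slope on Ifng, as the members did (0.52, adjusted p = 0.0056, limma). To set the members beside it, each member's log2(FPKM + 1) was taken relative to Cd274 in the same tumor. The 9 members were then higher in the combination than with α-KG by 2.00 to 4.58, with no overlap for any member, against 7.63% of genes without overlap. Relative to the mean of the 7 pan-leukocyte markers the difference was 1.87 to 4.45, again with no overlap for any member, against 4.47% of genes. The pan-leukocyte markers do not separate kinds of leukocyte. All 6 neutrophil markers were called lower and all 9 T-cell markers higher in the combination than with α-KG, as were 832 and 4086 of the 12850 genes tested. Each of these differences relative to Cd274 or the pan-leukocyte markers, among 36 computed, had an exact permutation p of 0.0286 (two-sided, unadjusted). That is the smallest that 4 tumors against 4 can give. Cd274 differed by -0.10 between these groups and the pan-leukocyte markers by a median of 0.10, though single markers ran from -0.93 to 0.50. The relative differences therefore stayed close to the plain ones (1.89 to 4.47), which already did not overlap, so this p adds no separate support. The rest of the 36 set α-KG against anti-PD1, where the members were lower without overlap on both relative scales, as were 92.2% and 91.6% of all genes.

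Of 10 other interferon gamma targets tested, all 10 were higher in the combination than with vehicle, 8 than with α-KG and 5 than with anti-PD1. The shares of all genes called higher in these comparisons were 34.9%, 31.8% and 14.2%, and 8.4% for α-KG over vehicle. The chemokine Cxcl9, which draws activated T cells, rose by 3.44 over vehicle (adjusted p = 0.00053, limma) and the peptide transporter Tap1 by 3.43 (adjusted p = 0.0024, limma). The 2 targets not higher in the combination than with α-KG were Cd274 and Nos2, the inducible nitric oxide synthase, and the same pair were the only ones of the 10 called between α-KG and vehicle, where Nos2 rose by 3.83 (adjusted p = 7.3e-05, limma). The 9 tested members had the calls of the other 8 in both comparisons.

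Genes that act with the GTPases behaved in different ways. The 10 genes of ATG8 conjugation, the autophagy reaction that IRGs and GBPs depend on to find their targets, changed little, with 1 higher (Atg16l1, 0.78, adjusted p = 0.005, limma) and 2 lower (Gabarapl2 and Map1lc3a) in the combination than in vehicle and a median of 0.11, near the 0.15 of all genes. Of 8 inflammasome genes, 7 were higher in the combination than in vehicle, against 34.9% of all genes. The caspase gene Casp4, whose product senses bacterial lipopolysaccharide, differed from the members, rising with α-KG alone by 1.96 (adjusted p = 7.8e-05, limma). Nlrp3 and Il1b also rose with α-KG alone, by 3.99 and 6.94 (adjusted p = 3.5e-07 and 1.9e-07, limma), and were lower in the combination than with α-KG by 2.57 and 4.59 on the log2 scale (adjusted p = 8.5e-05 and 3.5e-05, limma).

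**Figure D5:**
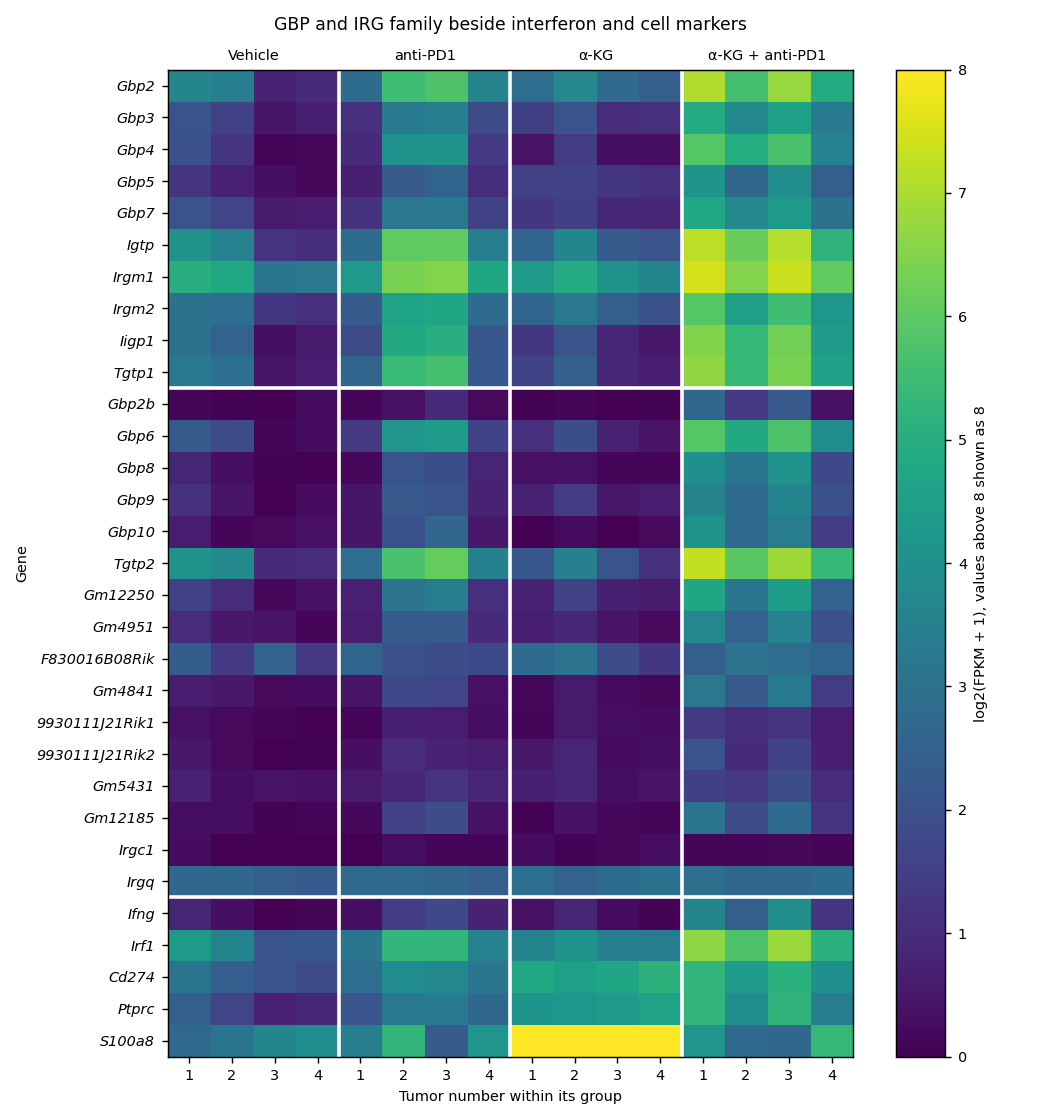
Heat map of log2(FPKM + 1) in 16 tumors, columns ordered by group and tumor number, with the 10 members at the top, 16 related genes in the middle and 5 interferon pathway or cell marker genes at the bottom, colors capped at 8. The members and most related genes are brightest in combination tumors 1 and 3, whereas Cd274, Ptprc and S100a8 are high in all 4 α-KG tumors where the members are low.

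The α-KG tumors were not poor in immune transcripts as a whole. All 7 pan-leukocyte markers were higher with α-KG than with vehicle, against 8.4% of all genes. None differed by limma between the combination and α-KG, where 1 of 7 had an unadjusted p under 0.05. The 6 neutrophil markers summed to 1075 to 2862 FPKM with α-KG and to 18.3 to 111.3 FPKM in the other 12 tumors, Ly6g being at 0 in all 4 vehicle tumors. The 9 T-cell markers summed to 3.14 to 13.95 FPKM with vehicle, 13.7 to 43.1 with anti-PD1, 8.52 to 51.7 with α-KG and 30.9 to 264.4 in the combination, and all 9 were higher in the combination than with vehicle and than with α-KG, and 8 of 9 than with anti-PD1 (median difference 1.78). The 5 NK-cell markers summed to at most 4.17 FPKM outside the combination and to 3.29 to 29.9 FPKM in it, with Klra8 at 0 in all 4 vehicle tumors, and the 3 that could be tested were higher in the combination than with anti-PD1. The 7 macrophage markers summed to 97.2 to 485.9 FPKM with vehicle, 425.6 to 799.7 with anti-PD1, 428.2 to 695.7 with α-KG and 672.0 to 1617 in the combination. All 7 were called higher in the combination than with vehicle, 3 than with α-KG and 0 than with anti-PD1. For these cell type counts, the background of the combination was 34.9% of genes called higher over vehicle, 31.8% over α-KG and 14.2% over anti-PD1. The part of these cell types in the members' levels was not tested.

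Over all genes tested, the 5 non-members whose profile over 16 tumors was most like the mean of the members were Gbp6 (Pearson r 0.997), Ifi47 (0.989), Apol9a (0.989), Batf2 (0.988) and Bst2 (0.988), of 12840 genes. Ifi47 encodes another IRG protein, and Bst2 encodes tetherin, which holds budding viruses at the cell surface. Irf1 had rank 14 (0.983). Ifng itself had an r of 0.933, and the leukocyte marker Ptprc 0.581.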

How the data were processed

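Poly(A)-selected RNA of 16 tumors had been sequenced as dUTP libraries. The authors deposited 1 FPKM value per gene and tumor, rounded to 2 decimals. The submitters' processing notes name HISAT, Bowtie2 and mm10 without their roles, and the program that made the FPKM is not given in the sources used here. Values near 0 did not recover whole reads (24.7% of ratios within 0.15 of a whole number, 30% by chance), so depth is unknown.

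Genes with at least 0.5 FPKM in 4 or more tumors (12850 of 18929) were fitted as log2(FPKM + 1) with limma 3.58.1 (R 4.3.3), 1 mean per group over all 16 tumors, eBayes with a trend, and Benjamini-Hochberg adjustment over all genes tested, threshold 0.05. The fit was tested on simulated data. The text names every member, genes of the chosen lists and the 5 genes most like the members. The members and lists were chosen with earlier results of these data known. Alternatives were another pseudocount (0.1), no filter, 4 scalings, a replicate block, fits of the compared groups only and leaving out each tumor. The Ifng covariate fit was chosen after seeing the data. Gene IDs matched RefSeq GRCm38.p6 for 99.7% of genes, and the upstream regions of Gbp4 and Iigp1 were not analysed here. Expression of genes with near-identical copies can be split by the authors' counting.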

Additional observations from a re-analysis of the deposited data

How the results depend on the processing

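The counts of 9 members higher in the combination than in vehicle and than in α-KG were the same under every alternative run, including each tumor left out (9 to 9) and 4 scalings. The count against anti-PD1 was not stable. It was 3 as reported, 0 with a pseudocount of 0.1, 1 with no filter on low values, 6 after rescaling to the same sum and 0 when only the compared groups were fitted, and 0 to 6 with single tumors left out. The differences of Gbp3, Gbp5 and Gbp7 did not shrink with the smaller pseudocount (2.03, 2.07 and 1.98), and calls over all genes moved too, from 1819 higher to 1349, 1279, 4198 and 0 under the same 4 settings. Leaving out single tumors gave 0 to 1 for anti-PD1 against vehicle (1 without vehicle tumor 1, Gbp2), 0 to 1 for the interaction (1 without anti-PD1 tumor 2, Gbp7) and 0 throughout for α-KG against vehicle or anti-PD1. The cause was not tested. Tumor numbers did not pair the groups (24 same-number correlations from -0.64 to 0.41, and 3 of 16 tumors closest to their own number), and the fit with the replicate block changed no count (9, 9, 3, 0, 0, 0 and 0).

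Signs turned only for small differences. For α-KG minus vehicle, Gbp7 was at 0.0088 with a pseudocount of 0.1, and with single tumors left out Gbp3 ran from -0.050 to 0.48, Gbp7 from -0.29 to 0.20, Igtp from -0.29 to 0.73, Irgm1 from -0.083 to 0.58, Iigp1 from -0.86 to 0.035 and Tgtp1 from -0.84 to 0.082. For α-KG minus anti-PD1, Gbp5 ran from -0.60 to 0.026. Over all genes, higher and lower calls against α-KG were 4086 and 832 as deposited and 1758 and 3127 after median centering, and against anti-PD1 1819 and 168 and then 802 and 1968. Depth is unknown, so no counting error can be given for low FPKM values.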
